A study of Mus musculus with 36 samples.

Results

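The genes described here are those of the 7SK RNA, the proteins that package it, the kinase it holds, and the RNAs of the processing enzymes RNase P and RNase MRP. They were chosen by name, as 9 gene symbols of 55536 annotated genes, after *Rn7sk* had been seen to be the most counted gene of these libraries. *Rn7sk* encodes the 7SK RNA. *Larp7* and *Mepce* encode its stable protein partners, *Hexim1* the inhibitor it carries, and *Cdk9*, *Ccnt1* and *Ccnt2* the kinase and cyclin subunits of P-TEFb. *Rpph1* and *Rmrp* encode the RNA subunits of RNase P and RNase MRP. All 9 symbols had at least 1 count over the 36 libraries, and 8 of them were among the 16723 genes that passed the filter on low counts. *Rmrp*, for which the annotation lists a pair of overlapping models, was the exception.

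P-TEFb phosphorylates RNA polymerase II and the factors that hold it near the start of genes, and thereby releases it into elongation. The 7SK RNA, made by RNA polymerase III and capped by MEPCE, is held by LARP7 at its end and, together with HEXIM1, keeps P-TEFb in an inactive particle from which it can be released on demand. RNase P trims the leader of precursor tRNAs and RNase MRP cuts precursor ribosomal RNA, and both contain an RNA made by RNA polymerase III.

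The libraries came from brown pre-adipocytes of 2 clones, numbered 48 and 66, each grown from a single cell after Cas9 had disrupted *Rxra* in a clonal wild-type mouse line. Every library therefore carried the *Rxra*-/- background, and a retrovirus with hygromycin selection returned either the unaltered receptor (*Rxra*WT) or one whose serine at residue 22 was replaced by alanine (*Rxra*SA). Cells were collected at confluence in medium with insulin and triiodothyronine (day 0), after induction with added dexamethasone, isobutylmethylxanthine and indomethacin (day 2), and after a return to insulin and triiodothyronine (day 6). Each clone, genotype and day had 3 libraries of total RNA, made after removal of ribosomal RNA, which retained RNAs without a poly(A) tail such as 7SK. The replicates of a line are named technical in the series' design text and independent in the study's methods, so p-values measure the spread between these libraries, which may be technical.

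Total counts per library ranged from 11351078 to 24349263 (median 18338726). *Rxra* had 1851 to 11489 counts per library and did not differ between genotypes (log2 fold changes of -0.07 to 0.03 over the 3 days, smallest adjusted p = 1). The summed level of 6 adipocyte markers, in counts per 1000000 counts of the library (CPM) scaled by edgeR's TMM method, ranged from 90.8 to 209.9 at day 0, from 2793 to 5226 at day 2 and from 5408 to 9442 at day 6. *Ucp1*, the uncoupling protein that defines brown adipocytes, had at most 5 counts in any library. All 6 brown adipocyte markers together ranged from 10.7 to 46.2 CPM at day 0 and from 11.7 to 93.2 CPM at day 6, and 5 pre-adipocyte markers together from 254.6 to 464.8 CPM at day 0 and from 42.0 to 167.9 CPM at day 6. Of the markers of other cell types, *Adgre1* and *Ptprc* (macrophages) and *Cdh5* and *Kdr* (endothelium) had at most 1 count and *Myod1* (muscle) and *Epcam* (epithelium) none in any library. The other markers were not all near 0. The 4 macrophage markers summed to 4.91 to 11 CPM at day 0, 2.77 to 5.85 at day 2 and 5.34 to 11.5 at day 6, most of it *Cd68*, with up to 204 counts. The 4 skeletal muscle markers summed to 0.661 to 4.50 CPM at day 0, 0.248 to 1.44 at day 2 and 14.5 to 30.0 at day 6, most of it *Des*, with up to 530 counts. The 3 endothelial markers summed to at most 0.871 CPM and the 3 epithelial markers to at most 0.559 CPM. The part of such cells in the day differences was not tested. Replicates numbered 1 and 3 stood apart from each other in several members and in other genes, as described beside the replicate values. In bulk samples, fewer cells of a type and less RNA per cell cannot be told apart.

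The 3 short RNAs are shown as annotated transcripts, or by their first and last bases where longer than 300, (GENCODE M21, build GRCm38), 5′ to 3′ on the RNA's own strand and with T for U, because what each library could count of them depends on these sequences and on what overlaps them. In *Rn7sk*, a single exon of 331 bases at chr9:78175303-78175633 on the minus strand, capitals mark the 3 copies of GATC, which begin at positions 13, 42 and 64. This palindrome reads the same on both strands, and 429 of 4689 annotated transcripts of 300 to 360 bases (9.15%) hold at least as many.
Rn7sk 1-120: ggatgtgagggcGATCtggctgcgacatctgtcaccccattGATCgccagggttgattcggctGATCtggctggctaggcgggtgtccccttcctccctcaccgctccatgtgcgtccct
Rn7sk 272-331: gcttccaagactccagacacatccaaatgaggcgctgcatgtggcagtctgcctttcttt
*Rpph1* is a single exon of 319 bases at chr14:50807449-50807767 on the minus strand. Its first and last 100 bases are shown, and capitals mark the 86 bases that lie outside the exons of *Ccnb1ip1*, a protein-coding gene on the same strand.
Rpph1 1-100: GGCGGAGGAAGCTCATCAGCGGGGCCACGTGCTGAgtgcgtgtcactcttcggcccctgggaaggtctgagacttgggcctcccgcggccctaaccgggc
Rpph1 220-319: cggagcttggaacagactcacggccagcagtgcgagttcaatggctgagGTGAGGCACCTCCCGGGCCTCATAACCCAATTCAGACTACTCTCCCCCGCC
*Rmrp* is annotated as a ribozyme of 271 bases at chr4:43492788-43493058 and as a longer RNA of 281 bases at chr4:43492783-43493063, both on the minus strand. The longer model is shown, and capitals mark the 10 bases that the shorter model lacks.
Rmrp longer model: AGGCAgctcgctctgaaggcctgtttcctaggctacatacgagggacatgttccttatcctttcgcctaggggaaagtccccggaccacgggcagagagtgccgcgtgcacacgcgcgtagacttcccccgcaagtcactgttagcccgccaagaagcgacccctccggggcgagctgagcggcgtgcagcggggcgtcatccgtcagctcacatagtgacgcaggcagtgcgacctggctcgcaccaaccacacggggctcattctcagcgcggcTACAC

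The GATC copies of the 7SK RNA lie in its 5′ part, and paired copies of GAUC there are the known contact of HEXIM1. At the 3′ end the annotated *Rn7sk* closes with a run of 3 T, from position 329 to 331, and the U-rich 3′ end of the 7SK RNA is what LARP7 is known to hold. No exon base of *Rn7sk* was shared with another gene. Another 11 annotated genes matched it at 90% identity or more over at least 100 bases, and they held 20266 counts together against 19838681 for *Rn7sk*, so that read pairs lost to or gained from these copies were few among those that were assigned. Read pairs that map to several places were left out by the counting, and how many of them came from 7SK is not known.

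*Rmrp* could not be measured. The shorter model had 0 counts and the longer model 1 count in all 36 libraries. Each of its bases but 10 lies in both models, and the counting left out read pairs that fell on more than 1 gene. *Ccdc107*, on the opposite strand, overlaps the longer model by 124 bases and had 20622 counts, and the counting did not use the strand. *Rpph1* had 1554662 counts, although *Ccnb1ip1*, with 36 counts in all, shares 233 of its 319 bases (73.0%). The level of *Rpph1* rests on the read pairs that the counting assigned to it alone. Its other neighbour, *Parp2*, lies 74 bases away on the opposite strand.

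*Rn7sk* was chosen for its count, and its level is given as a description. It held 3.00% of all counts and was the most counted gene in 31 of 36 libraries, while the mitochondrial ribosomal RNA *mt-Rnr2* came first in the other 5. The next genes over all libraries were *mt-Rnr2* (1.32%), *mt-Co1* (1.13%) and the nuclear RNA *Malat1* (0.991%). Within single libraries *Rn7sk* took between 1.84% and 4.98% of the counts, with a median of 2.86%. *Rpph1* took between 0.0826% and 0.619%, with a median of 0.212%, and ranked 13 among all genes by total count.

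Per kilobase of exon, *Rn7sk* stood at 92294 ± 24854 CPM (SD, n = 36 libraries), the highest of the 16723 genes tested, and *Rpph1* at 7493 ± 3829 CPM, which ranked 3. *Rpph1* was divided by all of its 319 bases, although 73.0% of them are shared with *Ccnb1ip1* and *Rn7sk* shares none. The values of these RNAs per kilobase are thus not on the same scale. Among the proteins that bind 7SK, *Larp7* stood at 32.0 ± 7.37 and *Mepce* at 15.9 ± 1.88 CPM per kilobase. *Hexim1* followed at 13.8 ± 6.45, *Ccnt1* at 12.4 ± 2.10, *Cdk9* at 12.2 ± 3.16 and *Ccnt2* at 7.67 ± 1.06 CPM per kilobase. The RNA of the particle thus exceeded each of its protein-coding RNAs by more than 3 orders of magnitude on this scale. *Rn7sk* exceeded *Rpph1*, *Rpph1* exceeded *Larp7* and *Larp7* exceeded *Mepce* in 36 of 36 libraries each, and *Cdk9* exceeded *Ccnt2* in 32. The order of *Mepce*, *Hexim1*, *Ccnt1* and *Cdk9* was within the spread between libraries, since each exceeded the next in 26, 20 and 20 of 36 libraries.

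Over the days, the RNA itself rose. The 12 libraries of day 0 had 18042, 25399 and 37954 CPM of *Rn7sk* (lowest, median and highest), those of day 2 had 20525, 30087 and 41752, and those of day 6 had 25119, 36459 and 51883. The medians thus followed the days, but each day's range overlapped the others. From day 0 to day 6 *Rn7sk* rose by a log2 fold change of 0.52 ± 0.14 (SE), or 1.43-fold (edgeR's quasi-likelihood test, adjusted p = 0.00153), and its mean was higher in 4 of 4 lines. The steps from day 0 to day 2 (0.27 ± 0.14, adjusted p = 0.0843) and from day 2 to day 6 (0.25 ± 0.14, adjusted p = 0.121) did not pass the threshold. With the replicate number of each clone as a block in the same test, they were 0.24 ± 0.09 and 0.25 ± 0.09. Both then passed (adjusted p = 0.0194 and 0.021), although across days this number is shared and not a pairing by design. With each clone fitted alone, the difference between day 6 and day 0 was 0.67 ± 0.20 in clone 66 (adjusted p = 0.00925) and 0.40 ± 0.20 in clone 48 (adjusted p = 0.109), and the changes of the clones did not differ by test (0.25 ± 0.29, adjusted p = 0.863). Without the 12 libraries of replicate number 1, the rise was 0.31 and lost its call (adjusted p = 0.102). By replicate number, the medians of 4 libraries at days 0, 2 and 6 were 24662, 33814 and 43426 CPM in replicates 1, 28443, 34604 and 37698 CPM in replicates 2, and 23142, 22263 and 26051 CPM in replicates 3.

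Measures of library composition moved with the day too. The share of counts on ribosomal RNA genes had medians of 0.578%, 0.706% and 1.95% at days 0, 2 and 6, and that on mitochondrial genes 1.62%, 2.16% and 3.35%. These shares overlap, because the ribosomal RNA genes include those of the mitochondrion. The mitochondrial *mt-Rnr2* alone held 1.32% of all counts, against a mean ribosomal RNA share of 1.54% per library. In replicates 1 the ribosomal RNA medians were 0.155%, 0.183% and 0.228%, and in replicates 3 they were 0.920%, 2.18% and 5.44%. The part of these shares in the day differences of *Rn7sk* and the other members was not tested.

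**Figure D1:**
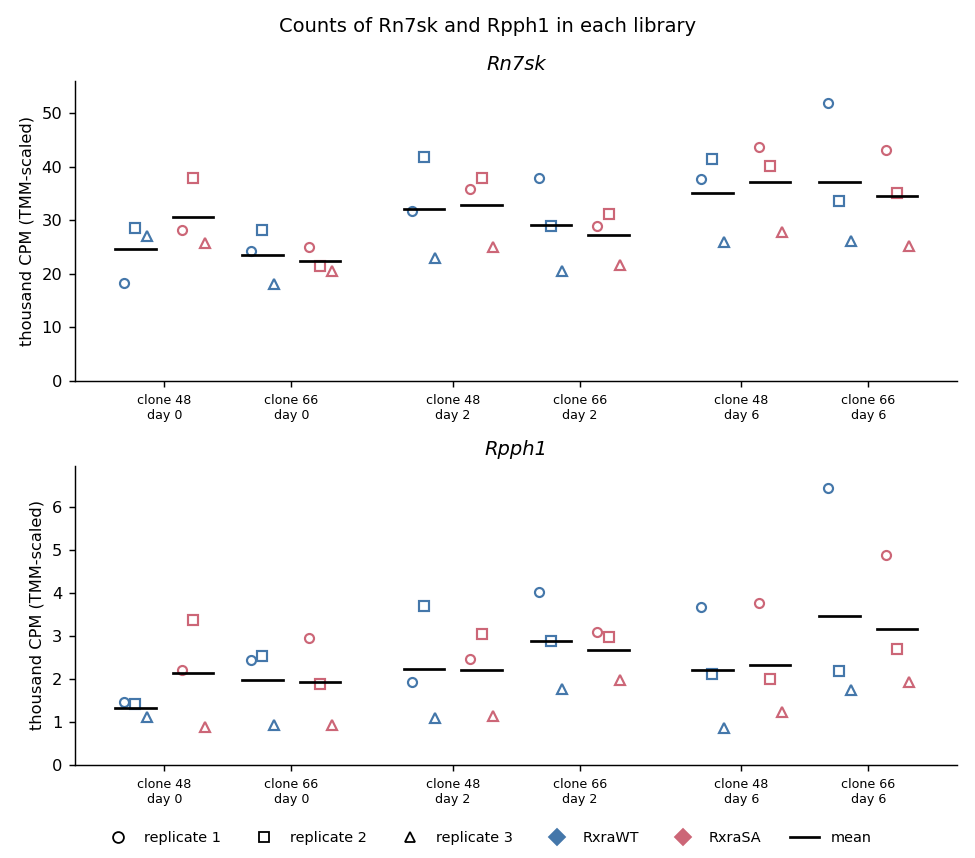
Level of *Rn7sk* (top) and *Rpph1* (bottom) in units of 1000 TMM-scaled CPM in each of the 36 libraries, by clone, day and genotype, with marker shape giving the replicate number and bars the mean of 3 libraries. Triangles, replicate number 3, lie lowest in 11 of 12 groups for *Rn7sk* and in 12 of 12 for *Rpph1*, and the means of *Rn7sk* lie higher at day 6 than at day 0 in each of the 4 lines.

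In single lines, *Rn7sk* in clone 48 *Rxra*WT went from 24629 ± 5596 CPM (SD, n = 3) at day 0 to 35112 ± 8086 at day 6, and in clone 48 *Rxra*SA from 30605 ± 6477 to 37232 ± 8391. In clone 66 the corresponding values were 23514 ± 5140 and 37196 ± 13270 with *Rxra*WT, and 22337 ± 2401 and 34474 ± 9037 with *Rxra*SA. The SD within a line at day 6 was thus between 8086 and 13270 CPM, against differences between days of a similar size.

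Across all genes, 12259 of 16723 genes (73.3%) were called between day 0 and day 2, 11423 (68.3%) between day 0 and day 6, and 10366 (62.0%) between day 2 and day 6. Of the 8 members tested, 3, 5 and 3 were called in these comparisons. To day 2, 2 members rose and 1 fell, against 35.8% and 37.5% of all genes. From day 0 to day 6, 4 rose and 1 fell (32.9% and 35.4% of genes), and from day 2 to day 6, 1 rose and 2 fell (31.9% and 30.1% of genes). The members were thus called no more often than genes in general. The median absolute log2 fold change of the members was 0.35, 0.36 and 0.19, against 0.62, 0.50 and 0.43 over all genes tested. No member had ranges over the 12 libraries of each day that were apart in any pair of days, whereas 27.7%, 23.2% and 17.1% of all genes tested did.

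The proteins bound stably to 7SK differed from each other. *Larp7*, which protects the 3′ end of the RNA, had 74.8, 97.9 and 110.5 CPM at day 0 (lowest, median and highest of 12 libraries), 61.6, 68.3 and 76.6 CPM at day 2, and 55.5, 60.4 and 76.0 CPM at day 6. Of the 12 values of day 0, 10 lay above the highest of the later days, and the other 2 came from clone 48 *Rxra*SA. *Larp7* fell by 0.50 ± 0.06 on the log2 scale to day 2 (adjusted p = 4.59e-09) and by 0.64 ± 0.06 to day 6 (adjusted p = 2.03e-11), with a lower mean in 4 of 4 lines for each. The further difference from day 2 to day 6 was small (-0.14 ± 0.06, adjusted p = 0.0459), and its call was lost in 8 of the 14 other settings tried. *Mepce*, the enzyme that caps 7SK, had medians of 55.7, 58.6 and 57.7 CPM on the 3 days and passed no test without a block (0.11 ± 0.07, 0.07 ± 0.07 and -0.04 ± 0.07, with adjusted p from 0.179 to 0.686). With the replicate number as a block, *Mepce* at day 2 against day 0 was 0.11 ± 0.05 and passed (adjusted p = 0.0333). Scaling by library size alone turned that difference of *Mepce* to -0.15. The 95% interval of its difference between day 6 and day 0 ran from -0.07 to 0.22 on the log2 scale.

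*Hexim1*, the inhibitor that 7SK brings to P-TEFb, is transcribed from a single exon at chr11:103116231-103119725 on the plus strand. It had 20.3, 33.7 and 44.9 CPM at day 0 (lowest, median and highest of 12 libraries), 17.9, 36.4 and 68.8 CPM at day 2, and 42.5, 72.4 and 96.7 CPM at day 6. The medians of days 0 and 2 were close, the median of day 6 lay above every library of the earlier days, and the 4 lowest libraries of day 6 all carried replicate number 1. *Hexim1* rose by 1.15 ± 0.18 on the log2 scale from day 0 to day 6, or 2.22-fold (adjusted p = 7.49e-07), and by 0.89 ± 0.18 from day 2 to day 6 (adjusted p = 4.90e-05), with a higher mean in 4 of 4 lines in both comparisons. The difference between day 2 and day 0 did not pass the test (0.26 ± 0.18, adjusted p = 0.188). It passed with the replicate number as a block (0.24 ± 0.10, adjusted p = 0.0249). Fitted alone, clone 48 gave 1.26 and clone 66 gave 1.09 from day 0 to day 6 (adjusted p = 0.000138 and 0.00261). By line, the day 0 and day 6 means were 35.6 ± 4.37 and 82.3 ± 18.6 CPM in clone 48 *Rxra*WT, 28.9 ± 10.2 and 71.9 ± 16.8 CPM in clone 48 *Rxra*SA, 31.3 ± 12.5 and 65.6 ± 21.9 CPM in clone 66 *Rxra*WT, and 34.0 ± 11.7 and 70.6 ± 22.3 CPM in clone 66 *Rxra*SA. The rise of *Hexim1* to day 6 and the decline of *Larp7* to days 2 and 6 kept their calls in each of the 14 other settings and with any of the 36 libraries left out.

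The kinase subunit *Cdk9* had 31.7, 47.2 and 68.8 CPM at day 0, 42.3, 73.6 and 83.6 CPM at day 2 and 40.3, 59.3 and 65.7 CPM at day 6 (lowest, median and highest of 12 libraries). Its median was highest at day 2, with overlap between all days. *Cdk9* rose to day 2 by 0.46 ± 0.14 on the log2 scale (adjusted p = 0.00339, higher in 4 of 4 lines), and neither day 6 against day 0 (0.19 ± 0.14, adjusted p = 0.215) nor day 6 against day 2 (-0.27 ± 0.14, adjusted p = 0.0921) passed. With the replicate number as a block, these differences at day 6 were 0.21 ± 0.07 and -0.24 ± 0.07 and passed (adjusted p = 0.00905 and 0.00385). The rise of *Cdk9* was 0.33 without the 12 libraries of replicate number 2 (adjusted p = 0.163), 0.47 in clone 66 alone (adjusted p = 0.0618), and 0.20 when counts were scaled by library size alone (adjusted p = 0.164), and in none of these was it called. Of its exon bases 3.36% are shared with *Mir2861* and *Mir3960*, which had no counts.

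*Ccnt1*, the cyclin found in most P-TEFb, had 77.7, 98.6 and 116.5 CPM at day 0, 108.0, 130.4 and 159.1 CPM at day 2 and 89.8, 109.9 and 133.5 CPM at day 6 (lowest, median and highest of 12 libraries). It rose to day 2 by 0.42 ± 0.07 on the log2 scale (adjusted p = 3.70e-06, higher in 4 of 4 lines) in each of the 14 other settings. It then fell by 0.24 ± 0.07 to day 6 (adjusted p = 0.00512, lower in 4 of 4 lines), and remained 0.19 ± 0.07 above day 0 (adjusted p = 0.0234). These last calls of *Ccnt1* were weaker. The fall to day 6 was called in neither clone alone (adjusted p = 0.0647 in clone 48 and 0.123 in clone 66) and was 0.06 without replicate number 1 (adjusted p = 0.465). The difference of *Ccnt1* between days 6 and 0 was lost in 5 of 14 settings, without the library of clone 48 *Rxra*SA at day 0 replicate 2 (adjusted p = 0.050), and without replicate number 2 or 3 (0.14 and 0.08 on the log2 scale). The antisense gene *9330020H09Rik*, with 2062 counts, overlaps 7.59% of the exon bases of *Ccnt1*, and without strand such read pairs cannot be told apart.

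*Ccnt2*, the alternative cyclin of the same kinase, had medians of 87.8, 94.4 and 102.4 CPM on the 3 days within ranges of 80.5 to 101.1, 65.8 to 115.4 and 79.9 to 123.6 CPM. Only day 6 against day 0 passed the test among the 3 pairs of days (0.18 ± 0.07 on the log2 scale, adjusted p = 0.0216, higher in 3 of 4 lines). The exception was clone 48 *Rxra*WT, with 86.2 ± 5.03 CPM at day 0 and 85.6 ± 6.44 CPM at day 6, and clone 48 alone gave 0.07 (adjusted p = 0.642). Without replicate number 2 the difference in *Ccnt2* was 0.14 (adjusted p = 0.217).

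**Figure D2:**
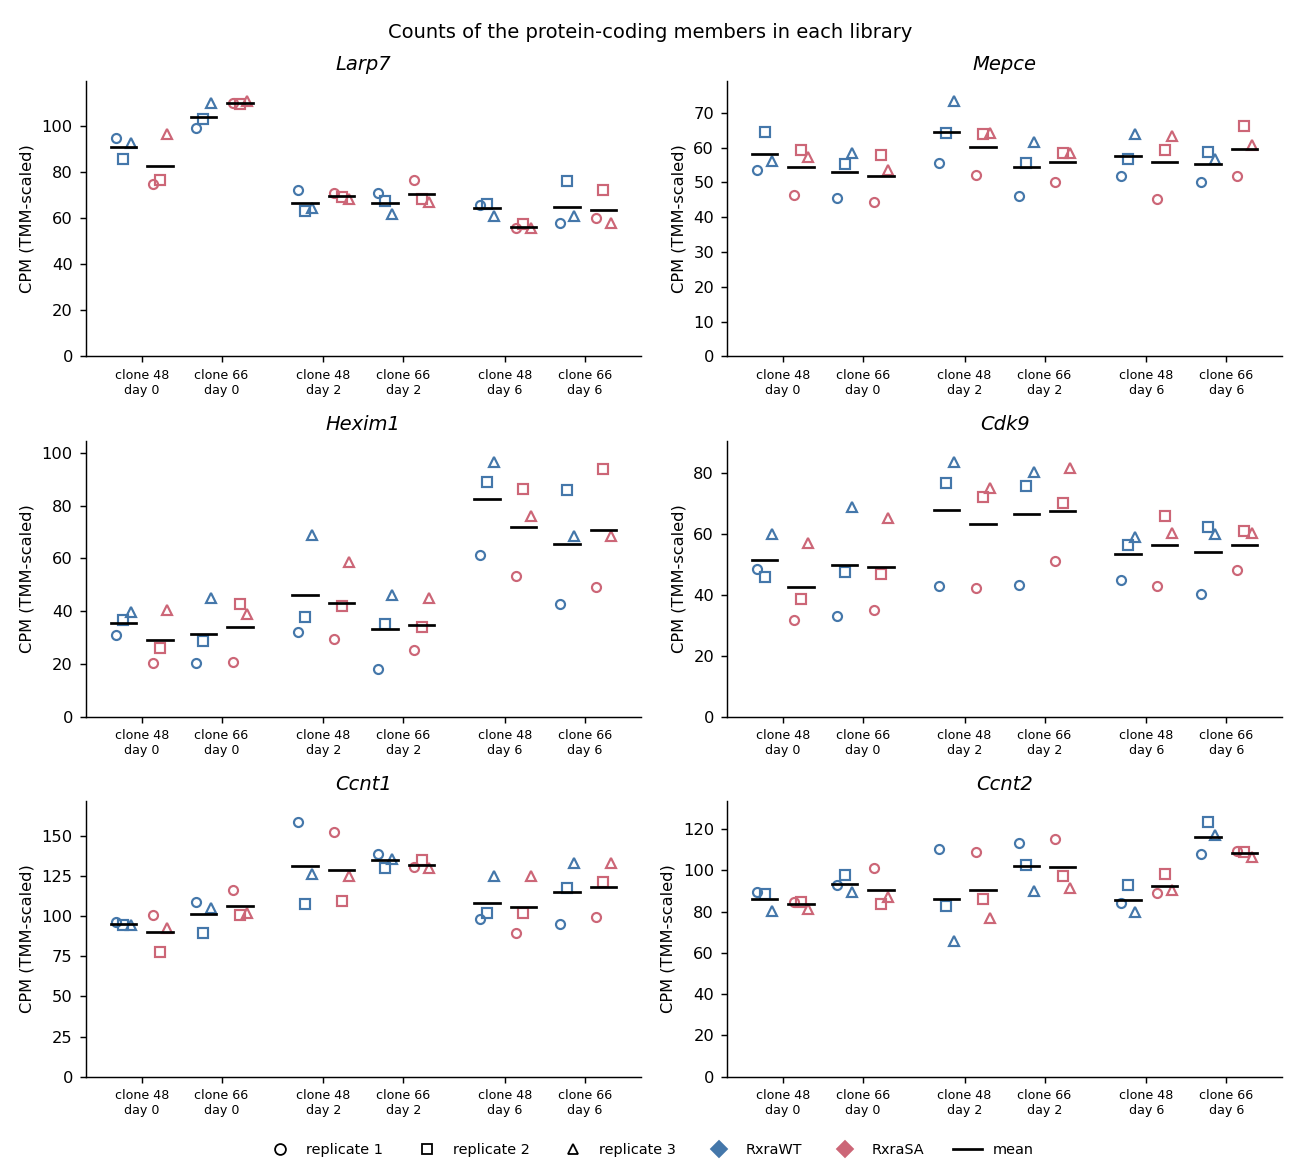
TMM-scaled CPM of the 6 protein-coding members in each of the 36 libraries, by clone, day and genotype (blue, *Rxra*WT; red, *Rxra*SA), with marker shape giving the replicate number and bars the mean of 3 libraries. *Larp7* lies lower at days 2 and 6 than at day 0, *Hexim1* lies higher at day 6, and circles, replicate number 1, lie lowest in 12 of 12 groups for *Hexim1* and *Mepce*.

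Ratios within a library do not depend on how libraries were scaled, and were chosen after the levels had been seen. Per kilobase, *Hexim1* relative to *Cdk9* was 0.890 ± 0.124 (SD, n = 12) at day 0, with a range of 0.776 to 1.2, and 0.780 ± 0.179 at day 2, with a range of 0.546 to 1.09. At day 6 it was 1.73 ± 0.267, with a range of 1.36 to 2.17. The 12 ratios of day 6 all lay above those of days 0 and 2. The ranges of *Hexim1* itself overlapped between days, and its lowest library in a group was also the lowest in *Cdk9* in 11 of 12 groups. Of the 16722 other genes tested, 16.1% had ratios to *Cdk9* that did not overlap between day 6 and day 0, and 10.3% between day 6 and day 2, so such a separation was not rare.

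*Larp7* relative to *Mepce* declined from 2.71 ± 0.509 at day 0 to 1.78 ± 0.315 at day 2 and 1.65 ± 0.202 at day 6, with overlapping ranges. *Ccnt1* relative to *Ccnt2* was 1.5 ± 0.136, 1.90 ± 0.282 and 1.52 ± 0.267 on the 3 days, highest at day 2 with overlap. *Rn7sk* relative to *Rpph1* was 15.3 ± 6.36, 12.8 ± 4.16 and 15 ± 6.16, and its means lay within each other's SD. With 73.0% of the bases of *Rpph1* shared with *Ccnb1ip1*, the size of this ratio is uncertain.

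**Figure D3:**
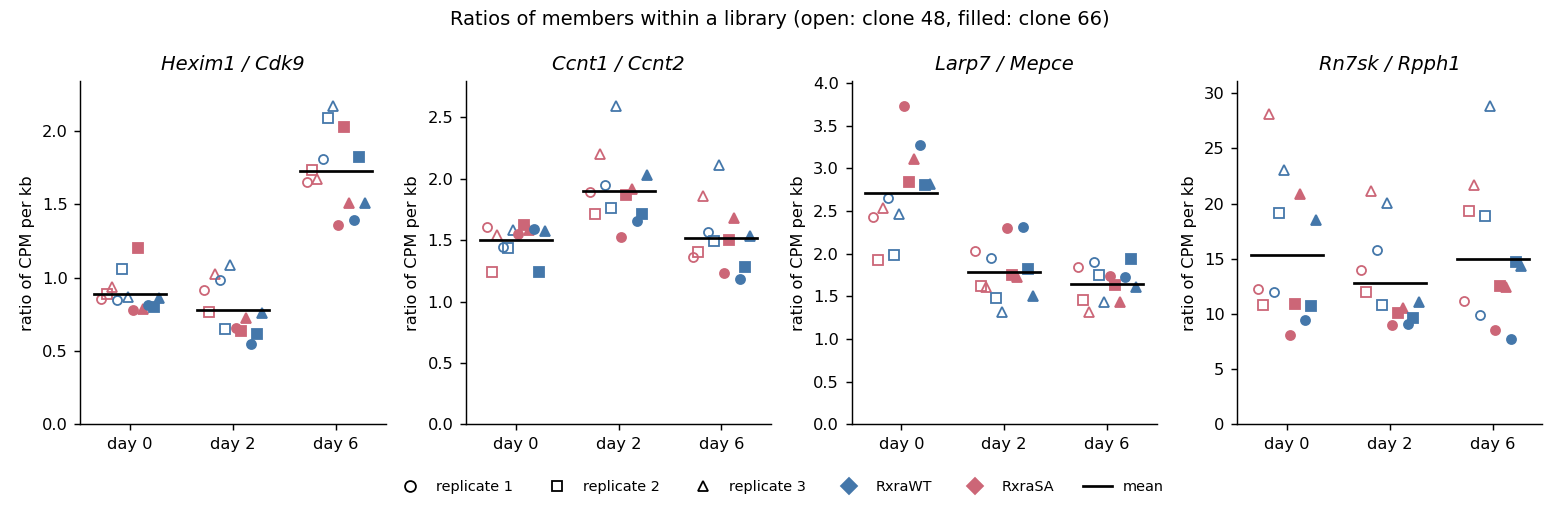
Ratios of members per kilobase of exon within each of the 36 libraries, by day, with filled markers for clone 66, open markers for clone 48, marker shape for the replicate number and bars for the mean of 12 libraries. The ratio of *Hexim1* to *Cdk9* lies between 1.36 and 2.17 at day 6 and at or below 1.2 on the earlier days, while the other ratios overlap between days.

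*Rpph1*, the catalytic RNA of RNase P, varied most between libraries. It had 883, 1681 and 3385 CPM at day 0, 1103, 2680 and 4023 CPM at day 2 and 871, 2160 and 6455 CPM at day 6 (lowest, median and highest of 12 libraries), so that the libraries of day 6 spanned those of the other days. No day difference passed the test (0.44 ± 0.27 for day 2 and 0.58 ± 0.27 for day 6 against day 0, adjusted p = 0.147 and 0.0592, and 0.14 ± 0.27 between them). With the replicate number as a block, day 2 against day 0 was 0.45 ± 0.15 and passed (adjusted p = 0.00696). The 95% interval for day 6 against day 0 ran from 0.04 to 1.12 on the log2 scale, and the result depended on the setting. The difference was called in 3 of 14 other settings (DESeq2's Wald test with adjusted p = 0.0394, no filter with 0.0136 and the replicate block with 0.0022) and with 15 of the 36 single libraries left out. Without replicate number 2 or 3 it was called (0.895 and 0.617 on the log2 scale, adjusted p = 0.0411 and 0.0163), and without replicate number 1 it was 0.16 (adjusted p = 0.673).

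**Figure D4:**
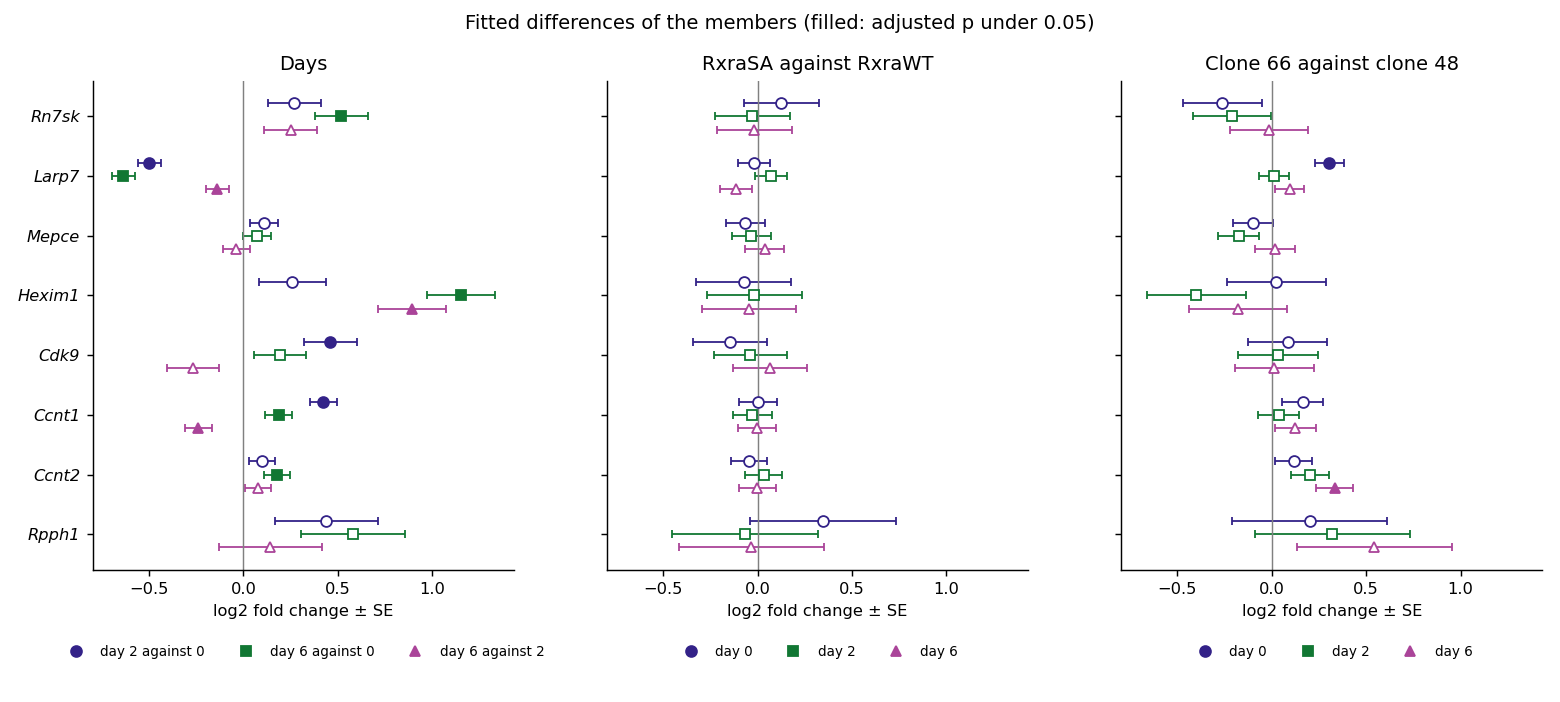
Fitted log2 fold changes ± SE of the 8 members tested, between days (left), between *Rxra*SA and *Rxra*WT on each day (middle) and between clones on each day (right), with filled markers where the adjusted p was under 0.05. The day panel holds 3 calls at day 2 against day 0, 5 at day 6 against day 0 and 3 at day 6 against day 2, the genotype panel none, and the clone panel 1 each for *Larp7* at day 0 and *Ccnt2* at day 6.

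The other genes of the pathway were taken from lists, and their counts are to be read against all genes tested, of which 35.8% rose and 37.5% fell to day 2, 32.9% rose and 35.4% fell from day 0 to day 6, and 31.9% rose and 30.1% fell from day 2 to day 6. The medians over all genes tested were -0.02, -0.03 and 0.01 in the same order. Of 10 proteins that bind 7SK or release P-TEFb from it, 6 rose and 2 fell from day 0 to day 2, and 2 rose and 8 fell from day 2 to day 6. Their median log2 fold change was 0.40 and then -0.48. The helicase *Ddx21* rose by 1.76 ± 0.26 to day 2 and fell by 1.52 ± 0.26 to day 6, and the phosphatase *Ppm1g* rose by 0.82 ± 0.10 to day 2. Between days 0 and 6, 3 of the 10 rose and 4 fell. *Hexim2*, the paralogue of *Hexim1*, rose by 1.11 ± 0.10 from day 0 and by 1.56 ± 0.11 from day 2 to day 6, and *Jmjd6* rose by 1.11 ± 0.07 from day 0 to day 6. As the single exon of *Hexim1* and the exons of *Hexim2* share no annotated base, their counts were separate.

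Among 10 recruiters of P-TEFb and members of the super elongation complex, 5 rose and 4 fell to day 2, 3 rose and 4 fell from day 0 to day 6, and 3 rose and 4 fell from day 2 to day 6. The 7 of 10 called from day 0 to day 6 were close to the 68.3% of all genes, and the list medians were 0.27, -0.04 and -0.22. The scaffold gene *Aff3* fell by 4.07 ± 0.24 to day 2 and by 1.82 ± 0.21 to day 6, and rose by 2.25 ± 0.23 between them. *Eaf2* rose by 1.6 ± 0.13 and 1.03 ± 0.13 to these days, and *Eaf1* fell by 1.04 ± 0.12 from day 2 to day 6. Of 6 pausing factors, the targets of P-TEFb, 3 rose and 2 fell to day 2, and 2 rose and 1 fell in each of the other comparisons (medians 0.22, 0.05 and -0.15), so that 3 of 6 were called where 68.3% and 62.0% of all genes were. Their changes were small, from a fall of 0.41 ± 0.07 in *Nelfb* to a rise of 0.51 ± 0.09 in *Nelfcd* at day 2, and *Nelfb* then rose by 0.42 ± 0.07 and *Nelfcd* fell by 0.29 ± 0.09 to day 6. From day 0 to day 6, *Supt4a* fell by 0.38 ± 0.11 and *Nelfe* rose by 0.33 ± 0.07. Of 9 other transcription kinases and cyclins, 4 rose and 1 fell to day 2, 1 rose and 4 fell from day 0 to day 6, and 2 rose and 4 fell from day 2 to day 6 (medians 0.31, -0.17 and -0.18), and 5 of 9 called in each of the first 2 comparisons compare with 73.3% and 68.3% of all genes. *Cdk19* fell by 0.90 ± 0.09 and its paralogue *Cdk8* rose by 0.72 ± 0.06 to day 2, and *Cdk8* and *Ccnh* then fell by 0.77 ± 0.06 and 0.67 ± 0.07. From day 0 to day 6, *Cdk13* rose by 0.62 ± 0.06 and *Cdk19* fell by 0.57 ± 0.09.

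Beside *Rpph1*, 10 protein genes of RNase P and MRP were tested. Of these 6 rose and none fell to day 2 (median log2 fold change 0.66), 5 rose and 3 fell from day 0 to day 6 (0.27), and 1 rose and 7 fell from day 2 to day 6 (-0.50). Called in all were 6, 8 and 8 of 10, against 73.3%, 68.3% and 62.0% of all genes. *Rpp40* rose by 1.72 ± 0.12 and fell by 1.14 ± 0.12 in the first and last of these steps, *Pop5* rose by 1.40 ± 0.08 to day 2 and by 0.82 ± 0.08 to day 6, and *Pop1* fell by 1.17 ± 0.13 from day 0 and by 2.09 ± 0.13 from day 2 to day 6.

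RNA polymerase III, which makes the short RNAs, was represented by 11 subunits. Of these 8 rose and none fell to day 2 (median 0.37), 3 rose and 3 fell from day 0 to day 6 (0.03), and 1 rose and 8 fell from day 2 to day 6 (-0.44). Called in all were 8, 6 and 9 of 11, which at day 2 is the share of all genes (73.3%), and from day 0 to day 6 is below it (68.3%). *Polr3e* rose by 1.6 ± 0.12 to day 2, fell by 0.99 ± 0.12 to day 6 and ended 0.62 ± 0.12 above day 0. *Polr3gl*, the subunit that takes the place of *Polr3g* in many differentiated cells, rose by 0.57 ± 0.07 from day 0 to day 6. *Polr3g* itself rose by 0.43 ± 0.14 over the same days. Of 11 genes for the initiation of *Rn7sk*, *Rpph1*, *Rmrp* and other genes with an upstream promoter, together with the repressor *Maf1*, 1 rose and 6 fell to day 2, 1 rose and 6 fell from day 0 to day 6, and 3 rose and 3 fell from day 2 to day 6, with medians of -0.164, -0.225 and -0.0564. *Snapc5* and *Snapc3*, of the complex that binds these promoters, fell by 0.49 ± 0.13 and 0.61 ± 0.12 from day 0 to day 6, and *Snapc5* and *Maf1* fell by 0.71 ± 0.13 and 0.65 ± 0.09 to day 2. From day 2 to day 6 *Maf1* rose by 0.43 ± 0.09 and *Bdp1* fell by 0.42 ± 0.15.

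Of 17 other short structured RNAs in a list, 12 were tested. To day 2, 7 rose and none fell (median 0.66), from day 0 to day 6, 3 rose and none fell (0.37), and from day 2 to day 6, none rose and 2 fell (-0.22). The 3 of 12 called from day 0 to day 6 and 2 of 12 from day 2 to day 6 lie below the 68.3% and 62.0% of all genes. The Y RNA *Rny3* rose by 1.17 ± 0.46 and the U8 RNA *Snord118* by 0.91 ± 0.21 to day 2, and *Snord118* and the vault RNA *Vaultrc5* fell by 0.63 ± 0.21 and 0.50 ± 0.19 from day 2 to day 6. The Cajal body RNA *Scarna6* rose by 0.56 ± 0.11 and *Rprl3*, a relative of *Rpph1*, by 0.42 ± 0.15 from day 0 to day 6.

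The scaling of libraries bears on these directions. When counts were divided by the library total alone, the median over all genes tested moved on the log2 scale from -0.02 to -0.27 for day 2 and from -0.03 to -0.22 for day 6 against day 0, and the higher share of the genes called dropped from 48.9% to 33.7% and from 48.2% to 34.9%. On that scale *Rn7sk* differed from day 0 by 0.01 at day 2 and by 0.34 at day 6 (adjusted p = 0.971 and 0.0366), *Hexim1* by 0.96 at day 6 (adjusted p = 9.57e-06) and *Larp7* by -0.82 at day 6 (adjusted p = 1.86e-13). *Ccnt1* and *Ccnt2* at day 6 turned to -0.01 each, *Ccnt2* at day 2 to -0.16 (adjusted p = 0.0496), and *Mepce* to -0.15 and -0.12 at days 2 and 6, all above the median of all genes on the same scale. The list medians kept their sign at day 2 against day 0 except for the pausing factors (-0.04), and at day 6 against day 0 the proteins that bind 7SK (-0.14), the subunits of RNA polymerase III (-0.15) and the pausing factors (-0.14) turned below 0. From day 2 to day 6 the genes for initiation turned from -0.06 to 0.01. The calls of RNA polymerase III subunits at day 2 became 3 higher and 2 lower of 11, those of proteins that bind 7SK 3 higher and 2 lower of 10, and those of the other short RNAs 3 higher and 0 lower of 12. Over all genes tested, 12451 (74.45%) were called at day 2 on that scale, 4195 of them higher, so each list was called less often than genes in general.

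No member differed between genotypes. *Rn7sk* had 24071 ± 4844 CPM with *Rxra*WT and 26471 ± 6292 CPM with *Rxra*SA at day 0 (SD, n = 6), 30641 ± 8291 and 30106 ± 6240 CPM at day 2, and 36154 ± 9894 and 35853 ± 7944 CPM at day 6. The means of the genotypes lay within each other's SD on every day. The log2 fold change of *Rn7sk* (*Rxra*SA against *Rxra*WT) was 0.13, -0.03 and -0.02 on days 0, 2 and 6, with 95% intervals of -0.26 to 0.52, -0.42 to 0.36 and -0.41 to 0.37. *Rpph1* had the widest interval of the members at day 0 (0.35, from -0.41 to 1.10), and *Larp7* at day 6 had a difference of -0.11, from -0.28 to 0.05. Over all 8 members the differences ran from -0.15 for *Cdk9* to 0.35 for *Rpph1* at day 0, from -0.07 to 0.07 at day 2 and from -0.11 to 0.07 at day 6. The share of genes called between genotypes was 0% on each day, and at an unadjusted p under 0.05 there were 139, 162 and 125 genes at days 0, 2 and 6 and 0 members. DESeq2's Wald test likewise called 0 members. Every adjusted p of a member was 1 in edgeR's test. The change over days did not differ between genotypes for any member (0 of 16723 genes called in each pair of days), nor did the genotype difference differ between clones for any (0 of 16723 genes on each day). With same-numbered *Rxra*WT and *Rxra*SA libraries of a clone and day as blocks, which the correlations of their deviations allow, the intervals were narrower. Those of *Rn7sk* then ran from -0.07 to 0.33, from -0.21 to 0.19 and from -0.20 to 0.20 on the log2 scale at days 0, 2 and 6, and those of *Rpph1* from -0.09 to 0.52, from -0.31 to 0.29 and from -0.22 to 0.39. The paired difference of *Cdk9* at day 0 was -0.15, from -0.29 to -0.01, and did not pass (adjusted p = 0.807), nor did that of any other member.

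Between clones 48 and 66, 1, 0 and 1 of the 8 members tested were called at days 0, 2 and 6. The members were thus called no more often than genes in general, at 23.7%, 30.0% and 26.2%. Clone and library pool coincide, so a difference between clones and a difference between pools cannot be told apart. At day 0, 3956 genes (23.7%) were called between clones, and *Larp7* was the called member, with 74.8, 88.9 and 96.5 CPM in the 6 libraries of clone 48 (lowest, median and highest) and 99.2, 109.6 and 110.5 CPM in those of clone 66. The difference of 0.30 ± 0.08 on the log2 scale (adjusted p = 0.00412) at day 0 compares with 0.01 ± 0.08 at day 2 and 0.09 ± 0.08 at day 6, neither of which passed. The decline of *Larp7* from day 0 to day 2 differed between clones by -0.29 ± 0.11 on the log2 scale and did not pass (adjusted p = 0.119). The changes over days differed between clones in 6.84%, 3.85% and 6.18% of genes (day 2 against 0, 6 against 0 and 6 against 2) and in 0 members. Without replicate number 2 the day 0 difference of *Larp7* was 0.26 (adjusted p = 0.123).

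At day 2, 5011 genes (30.0%) were called between clones and no member was. At day 6, 4381 genes (26.2%) were called, and *Ccnt2* had 79.9, 89.7 and 98.2 CPM in clone 48 and 106.5, 109.0 and 123.6 CPM in clone 66, a difference of 0.33 ± 0.10 on the log2 scale (adjusted p = 0.0117). It did not pass on the earlier days (0.12 ± 0.10 at day 0 and 0.20 ± 0.10 at day 2), and without replicate number 2 or 3 the day 6 difference of *Ccnt2* was 0.36 and 0.30 (adjusted p = 0.156 and 0.0548). *Rn7sk* was lower in clone 66 by 0.26 ± 0.21 at day 0 and by 0.21 ± 0.21 at day 2, with -0.01 ± 0.21 at day 6, and *Rpph1* was 0.20 ± 0.41, 0.32 ± 0.41 and 0.54 ± 0.41 higher, none of which passed.

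Within the groups, the members moved with the replicate number. *Rn7sk* had 18042, 25091 and 27750 CPM in the 12 libraries numbered 3 (lowest, median and highest), against 18237, 33814 and 51883 CPM in those numbered 1 and 21390, 34391 and 41752 CPM in those numbered 2. Replicate 3 was the lowest of the 3 libraries in 11 of 12 groups of clone, genotype and day, and 2.77% of the genes tested had replicate 3, and 9.45% any 1 number, lowest that often. The number was singled out after the levels had been seen. *Rpph1* had 871, 1137 and 1979 CPM in replicates 3 against 1463, 3029 and 6455 CPM in replicates 1, and replicate 3 was lowest in 12 of 12 groups, as in 0.682% of genes, while 3.41% had any 1 number lowest in all.

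The 6 protein-coding members differed in this from each other. *Hexim1* and *Mepce* were lowest in replicate 1 in 12 of 12 groups, as were 2.71% of genes, and *Cdk9* in 11 of 12, as were 6.55% of genes at that count or more. *Hexim1* had a median of 30.1 CPM in replicates 1, 39.8 in replicates 2 and 52.2 in replicates 3, and *Cdk9* 42.8, 61.6 and 62.6 CPM. *Ccnt2* was lowest in replicate 3 in 9 of 12 groups, as *Rn7sk* was in 11, and *Ccnt1* was lowest in replicate 2 in 7. *Larp7* showed no preferred number, with replicates 1, 2 and 3 lowest in 4, 3 and 5 groups.

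**Figure D5:**
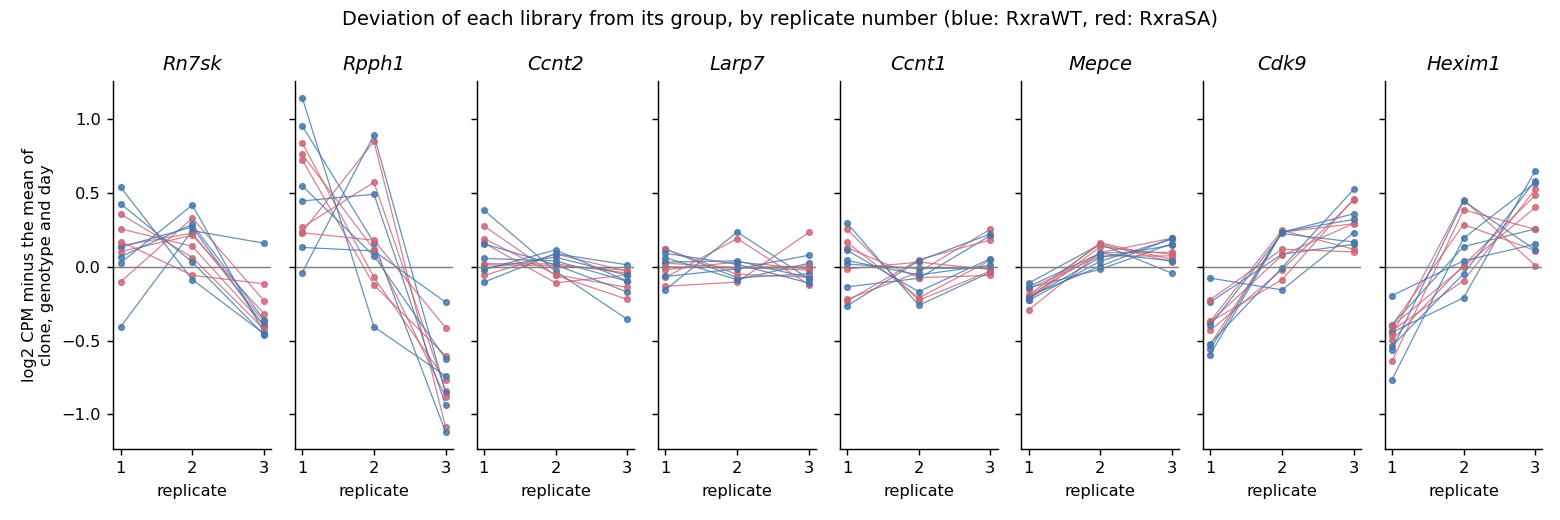
Deviation of each library's log2 CPM from the mean of its clone, genotype and day, by replicate number, with a line joining the 3 libraries of each of the 12 groups (blue, *Rxra*WT; red, *Rxra*SA). *Rn7sk* and *Rpph1* lie lowest at replicate 3 in 11 and 12 of the 12 groups, and *Hexim1*, *Mepce* and *Cdk9* lie lowest at replicate 1 in 12, 12 and 11 groups.

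Several measures of the libraries moved with the same numbers. The share of counts on ribosomal RNA genes had medians of 0.206%, 0.773% and 2.31% in replicates 1, 2 and 3, and that on mitochondrial genes 1.91%, 2.32% and 3.44%, while *Rn7sk* had 3.23%, 3.31% and 2.37%. The ribosomal RNA genes again include the mitochondrial ones, so the ribosomal and mitochondrial shares are not separate measures. Genes annotated as miscellaneous, ribozyme, small nuclear, small nucleolar or Cajal body RNA, members aside, together took 0.208%, 0.189% and 0.149%. Replicate 3 was the lowest in 4 to 11 of 12 groups for each of the 12 short RNAs tested from the list. Across 9482 genes, which are not independent replicates, the correlation of a library's deviations with GC content had a median of -0.26 in replicates 1, 0.14 in replicates 2 and 0.24 in replicates 3. The correlation with log2 exon length had medians of -0.13, -0.14 and 0.27 in the same order. *Rn7sk*, *Rpph1*, *Mepce* and *Cdk9* had a GC content of 58%, 67.1%, 56.6% and 56.6%, and *Hexim1*, *Ccnt1*, *Larp7* and *Ccnt2* 49.2%, 45.7%, 45.6% and 43.7%, against a median of 50.2% over the genes tested. *Rn7sk* and *Rpph1* had 331 and 319 exon bases and the protein-coding members 2366 to 12345, against a median of 3570. The part of RNA quality, ribosomal RNA removal, GC content or exon length in these values was not tested. Each number occurs once in every group, so the day, genotype and clone comparisons hold the numbers in equal parts. Equal parts do not balance an effect of the number that changes with the day, and whether it did was not tested.

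As a description over the 36 libraries, which share depth and preparation within a library, the deviations of *Rn7sk* and *Rpph1* correlated with r = 0.85. *Rn7sk* correlated with *Ccnt2* at 0.39, with *Larp7* at -0.02, with *Mepce* at -0.46, with *Cdk9* at -0.51, with *Ccnt1* at -0.56 and with *Hexim1* at -0.61. *Rpph1* and *Hexim1* had r = -0.76. Among the genes most like *Rn7sk* by this measure, of 9485 with sufficient counts, were *Rps27* (0.96), *H3f3a* (0.95), *Rpl22* (0.94) and *Rps20* (0.93), which are genes of ribosomal proteins and, for *H3f3a*, a histone. Those most like *Rpph1* were *Ndufa6* (0.98), *Igbp1* (0.97) and the small nucleolar RNA *Gm24336* (0.97). By the means of the 12 groups, the genes with the smallest root mean square difference from *Rn7sk* in log2 CPM were *Polb* (0.06), *Dctn2* (0.08), *Aurkaip1* (0.09), *Nr2f6* (0.09) and *Mon1a* (0.09). These short lists used unlike measures, and whether they share fewer genes than other lists of their length was not tested.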

How the data were processed

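RNA of 36 libraries was sequenced by the authors as stranded total RNA after removal of ribosomal RNA, aligned to GRCm38 with STAR 2.7.0d and counted on GENCODE M21 genes with featureCounts 1.6.2. The deposited values are raw counts per gene, without normalization or filtering. Per the file headers, strand was not used, and pairs that hit several genes or map to several places were not counted, so values of overlapping genes and repeated copies are uncertain. Sample columns not used numbered 0.

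Clone, genotype, day and replicate number came from the labels. The members and gene lists were chosen with earlier results of these data known, and the within-library ratios and the values by replicate number after the levels had been seen. Counts were filtered with filterByExpr and scaled by TMM in edgeR 4.0.16, and fitted over all 36 libraries with 1 coefficient per combination of genotype and day plus a clone effect, as in the study's methods. Clone contrasts used a coefficient for each clone, genotype and day. edgeR's quasi-likelihood test was used in its earlier form, with Benjamini-Hochberg adjustment over 16723 genes and a threshold of 0.05. The 95% intervals are the log2 fold change ± 1.96 SE. Levels are TMM-scaled CPM, divided by exon length in kilobases where genes are compared with each other. Deviations used log2(CPM + 0.5). Correlations of deviations used genes with a mean log2 CPM of at least 3.

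Named were all members, the 3 next most counted genes, *Rxra*, genes overlapping a member or within 1000 bases of *Rmrp* or *Rpph1*, the 2 called genes of each list and pair of days with the largest change, and the genes most like *Rn7sk* and *Rpph1*. Markers of cell types, used to check the tissue, and *Polr3g*, given beside *Polr3gl*, fall outside this. Some genes that these rules select are not reported here. Depth was 11351078 to 24349263 counts per library, so that members had at least 253 counts in every library, *Rmrp* aside. The *Rxra*WT and *Rxra*SA libraries of the same clone, day and number deviated together (r from 0.175 to 0.933, 18 of 18 pairs over 0.1), so the number pairs them, and blocks changed no member's genotype call. Across days, 55 of 72 pairs were over 0.1, so the number is only shared.

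Alternatives were RLE size factors, library size alone with and without the 3 short RNAs, no filter, a filter of 1 CPM in 6 libraries, DESeq2 1.42.0, replicate blocks, no clone term, each clone alone, and each library left out in turn. The fits were tested on simulated data. Leaving out each replicate number was chosen with the levels by replicate known. R 4.3.3, limma 3.58.1, python 3.11.15, pandas 2.3.3, numpy 2.4.6, matplotlib 3.10.9 and blastn 2.17.0 were used.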

Additional observations from a re-analysis of the deposited data

Results flagged for a closer look

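Of 48 sets of 6 libraries of 1 genotype and day tested (8 members), 2 held a library far from the others, and chance flags about 1 set in 20. That rate assumes libraries of a single population, while each set held 2 clones. *Ccnt2* stood at 101.1 CPM in clone 66 *Rxra*SA at day 0, replicate 1, against 81.1 to 86.9 CPM in the other 5 libraries of that genotype and day, and the gap to the nearest was 0.707 of the whole range, above Dixon's 95% critical value. *Larp7* stood at 72.1 CPM in clone 66 *Rxra*SA at day 6, replicate 2, against 55.5 to 60.0 CPM in the other 5, with a gap of 0.728 of the range. Replicate 2 was also the highest *Larp7* library of clone 66 *Rxra*WT at day 6, at 76.0 CPM. The cause of neither flagged value was tested.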

How the results depend on the processing

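Genotype results rest on no call under any setting. Of 336 day results over the other settings 292 kept their direction and their side of the threshold, 20 lost a call, 13 gained one and 11 changed sign. For clones the numbers were 113 of 120, with 3 lost, 1 gained and 3 changed in sign, and for genotypes 141 of 150, with 9 changed in sign. The cause was not tested, except that fewer libraries entered the fits of 1 clone or with libraries left out. At this depth and number of libraries, *Rpph1* is the member whose comparisons are limited most, with an SE of 0.27 between days.

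With the replicate number as a block, which across days is a shared number and not a pairing by design, 7 members were called between days 2 and 0 in place of 3, 5 between days 6 and 2 in place of 3, and 3 between clones at day 2 in place of 0. With this block 77.62%, 67.65% and 41.16% of all genes tested were called in the same comparisons, so calls rose over genes in general too. The block left the genotype difference of *Rpph1* at day 6 at 0.053 on the log2 scale, and blocks within each day gave 0.085 for *Rpph1* and 0.00030 for *Rn7sk*, all opposite in sign to the values without a block.

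Scaled by library size alone or by library size without *Rn7sk*, *Rmrp* and *Rpph1*, 3 members were called between days 6 and 0 in place of 5, and 0 between clones at day 6 in place of 1. By library size alone, 71.23% and 26.24% of all genes tested were called in these comparisons. Between days 2 and 0, *Mepce* turned to -0.15 under both and *Ccnt2* to -0.16 under both, and each passed the threshold as lower under 1 of them (*Ccnt2* under library size alone, adjusted p = 0.0496, and *Mepce* without the 3 RNAs, 0.0474). Between days 6 and 0, *Mepce* turned to -0.12 and -0.11, and *Ccnt1* to -0.0052 and *Ccnt2* to -0.0096 under library size alone. Between days 6 and 2, *Mepce* turned to 0.032 and 0.044, and between clones at day 2 *Larp7* turned to -0.039 and -0.046. Without a filter, 0 members were called between clones at day 0 in place of 1, and *Rn7sk* at day 6 turned to 0.00058 between genotypes and 0.00045 between clones.

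With clone 48 alone, 2 members were called between days 6 and 0 and 1 between days 6 and 2, and with clone 66 alone 1 between days 6 and 2. The shares of all genes called in these fits were 55.15% and 49.41% for clone 48 and 49.65% for clone 66, so calls dropped over genes in general too. Between genotypes, clone 48 alone turned *Rn7sk* to 0.035 at day 2 and 0.085 at day 6 and *Rpph1* to 0.071 at day 6, and clone 66 alone turned *Rn7sk* to -0.071 and *Rpph1* to -0.027 at day 0. Clone 66 alone turned *Mepce* to 0.062 between days 6 and 2.

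With single libraries or 1 replicate number left out, 2 to 5 members were called between days 2 and 0, 4 to 6 between days 6 and 0, and 2 to 4 between days 6 and 2. Between clones 0 to 1 were called at each day, and 0 to 1 in the difference of the change to day 2. Without replicate number 1, 2 or 3, the shares of all genes called were 71.75%, 63.49% and 69.66% between days 2 and 0. They were 64.47%, 59.80% and 64.00% between days 6 and 0, and 61.25%, 52.33% and 55.64% between days 6 and 2. Between clones these shares ran from 11.14% (day 0, without number 2) to 27.31% (day 2, without number 1). Between genotypes, *Rn7sk* ran from -0.12 to 0.070 at day 2 and from -0.11 to 0.15 at day 6, *Rpph1* from -0.22 to 0.16 and from -0.23 to 0.34, and *Cdk9* at day 6 from -0.0065 to 0.13. Between days 6 and 2, *Rpph1* ran from -0.35 to 0.49 and *Mepce* from -0.076 to 0.0054, and *Ccnt2* between days 2 and 0 from -0.0071 to 0.16. Between clones, *Rpph1* at day 0 ran from -0.072 to 0.44, *Larp7* from -0.019 to 0.050 at day 2 and from -0.0013 to 0.15 at day 6, and *Rn7sk* at day 6 from -0.18 to 0.11.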
